A study of Mus musculus with 28 samples.

Results

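Transcript levels of 9 mouse genes of purine breakdown and nucleoside transport were followed in small-intestinal organoids given single ligands of the Tgfb superfamily. The genes are Entpd1, Enpp3, Nt5e, Slc28a1, Slc28a2, Slc29a1, Ada, Pnp and Xdh. They were taken by name, not by a cut on measured values, but the choice was made with earlier results of these data known. A table for BMP ligands held 29413 genes and a table for Tgfb 55416, and all 9 were present in both. The title of the series names as its question which ligands of this family govern the last steps of enterocyte maturation at the tip of the villus.

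Organoids are cultures of intestinal epithelium grown without other tissue layers, and all samples were wild-type C57BL/6. The BMP table held 4 untreated controls (replicates II, III, IV and VI), 4 samples given recombinant Bmp2 with the same numbers, 3 given Bmp3 (II, III and IV), and 3 each given Bmp4, Bmp5 or Bmp7 (II, III and VI). The Tgfb table held 3 untreated controls and 3 samples given recombinant Tgfb (I, II and III). Every ligand was used at 500 ng/ml for 24 h, per the labels, and untreated cultures received none. The labels do not say whether replicates came from separate animals or lines, so the p-values measure the spread between these samples, which may be technical. The series text speaks of 2 sequencing runs without assigning samples to them, so a run and a ligand cannot be told apart.

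Nucleotides outside a cell are cut stepwise. Entpd1 (CD39) removes phosphates from ATP and ADP, Enpp3 cleaves nucleotides at the cell surface, and Nt5e (CD73) turns AMP into adenosine. Slc28a2 and Slc28a1 carry nucleosides into the cell along with sodium, with a preference for purine and pyrimidine nucleosides respectively, whereas Slc29a1 lets nucleosides equilibrate across the membrane. Inside, Ada converts adenosine to inosine, Pnp releases hypoxanthine from inosine, and Xdh oxidises hypoxanthine and xanthine to urate. In the small intestine the genes for CD73, Ada and Slc28a2 are known for high expression near the villus tip.

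The sequence upstream of the annotated start is shown for 5 genes whose response differed between ligands, namely Nt5e, Slc28a2 and Ada, with their highest means under BMP2, and Slc28a1 and Enpp3, with theirs under BMP4. Each sequence holds the 250 bases before the start, read 5′ to 3′ on the gene's strand, from RefSeq (GRCm38.p6). Capitals mark CAGAC (or GTCTG on the other strand), the core letters of a Smad binding element, and GGCGCC, a GC-rich element of BMP-responsive Smads.
Nt5e, chr9:88327359-88327608, plus strand: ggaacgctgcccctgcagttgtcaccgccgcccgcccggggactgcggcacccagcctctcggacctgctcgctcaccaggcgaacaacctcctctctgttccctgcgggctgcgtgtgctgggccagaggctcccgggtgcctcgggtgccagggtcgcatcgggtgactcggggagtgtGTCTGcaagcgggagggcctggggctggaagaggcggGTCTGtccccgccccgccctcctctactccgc
Slc28a2, chr2:122426185-122426434, plus strand: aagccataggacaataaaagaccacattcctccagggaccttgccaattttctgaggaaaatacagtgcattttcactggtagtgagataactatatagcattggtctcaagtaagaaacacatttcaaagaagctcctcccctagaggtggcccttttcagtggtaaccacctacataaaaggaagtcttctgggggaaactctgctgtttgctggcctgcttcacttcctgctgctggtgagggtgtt
Ada, chr2:163750240-163750489, minus strand: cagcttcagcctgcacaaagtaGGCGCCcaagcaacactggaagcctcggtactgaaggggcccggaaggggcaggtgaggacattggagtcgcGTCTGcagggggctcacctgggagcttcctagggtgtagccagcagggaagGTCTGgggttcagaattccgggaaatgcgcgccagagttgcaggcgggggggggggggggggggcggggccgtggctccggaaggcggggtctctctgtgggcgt
Slc28a1, chr7:81114549-81114798, plus strand: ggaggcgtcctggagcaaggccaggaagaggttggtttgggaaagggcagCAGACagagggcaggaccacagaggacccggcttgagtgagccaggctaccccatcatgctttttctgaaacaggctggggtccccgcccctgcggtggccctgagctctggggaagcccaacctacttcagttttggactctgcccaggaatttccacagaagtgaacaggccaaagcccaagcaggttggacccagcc
Enpp3, chr10:24836196-24836445, minus strand: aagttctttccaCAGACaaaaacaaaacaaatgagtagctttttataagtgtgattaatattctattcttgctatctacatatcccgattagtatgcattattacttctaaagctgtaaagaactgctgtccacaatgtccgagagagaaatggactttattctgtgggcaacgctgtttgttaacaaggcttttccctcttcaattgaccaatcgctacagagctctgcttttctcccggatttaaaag
Both strands were searched in all 32851 promoters of the table, of which 42.2% held CAGAC and 9.59% held GGCGCC. Nt5e held 2 CAGAC matches, Ada 2 and 1 GGCGCC, and Slc28a1 and Enpp3 1 CAGAC match each, whereas Slc28a2 held neither motif in this window. GTTAAT, a half-site of HNF1, and CAAAGTCCA, a site of HNF4, were in 6.43% and 0.384% of all promoters and in none of these 5 windows. None of the 4 motifs overlapped another in these windows. The matches describe the letters only, and no binding was measured here. Of the 9 genes, 8 had a promoter in the RefSeq table.

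The BMP table gives normalized counts, which are read counts of a gene over the size factor of its sample, at 21358040 to 24784992 recovered reads per sample. Tests used limma on log2(value + 1) across all genes with a mean of at least 10, and calls are Benjamini-Hochberg adjusted p-values under 0.05. The 5 BMP comparisons share their control samples. The sum of normalized counts was higher with BMP2 and BMP4, so rescaling all samples to the same total moved the median of all genes by -0.46 with BMP2 and -0.40 with BMP4 (log2), and the share of calls that were higher from 48.9% to 31.5% and from 51.7% to 30.9%. With BMP7 the same rescaling moved that share from 59.4% to 48.5%, and quantile normalization moved it to 48.0%; with BMP5 quantile normalization moved it from 62.5% to 49.8%. Among 5 target genes of BMP signalling (Id1, Id2, Id3, Smad6 and Smad7), all were higher with BMP2, BMP4 and BMP7, 4 of 5 were higher with BMP5, and none with BMP3.

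Of the 9 purine genes, 8 passed the filter of the BMP table, and Entpd1 did not. With BMP2, 5 of the 8 were higher and 2 lower, against 36.8% and 38.4% of all 14746 genes tested. With BMP4, 7 were higher and 1 lower, against 33.7% and 31.4%. BMP7 raised 5 and lowered 1, against 19.2% and 13.2%, and BMP5 raised 4 and lowered 2, against 16.5% and 9.87%. BMP3 changed 0 of the 8, and also 0 of all genes tested by limma (0% called), where 110 genes had an unadjusted p under 0.05. For BMP3, edgeR and DESeq2 on recovered reads also called 0 of the 8, and DESeq2 called 1 of all genes. The median log2 difference of the 8 genes was 2.79 under BMP2 and 3.30 under BMP4, where that of all genes tested was -0.03 and 0.04. Under BMP7, BMP5 and BMP3 it was 1.19, 0.85 and -0.09, and that of all genes was -0.05, -0.03 and 0.01. An F-test across the 5 ligands called 8 of 8, where 84.1% of all genes were called, so that count stands near the background. Without BMP5 replicate III or without replicate VI, 3 of the 8 rather than 6 were called with BMP5, and the count over all genes fell from 3884 to 2517 and 2531.

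**Figure D1:**
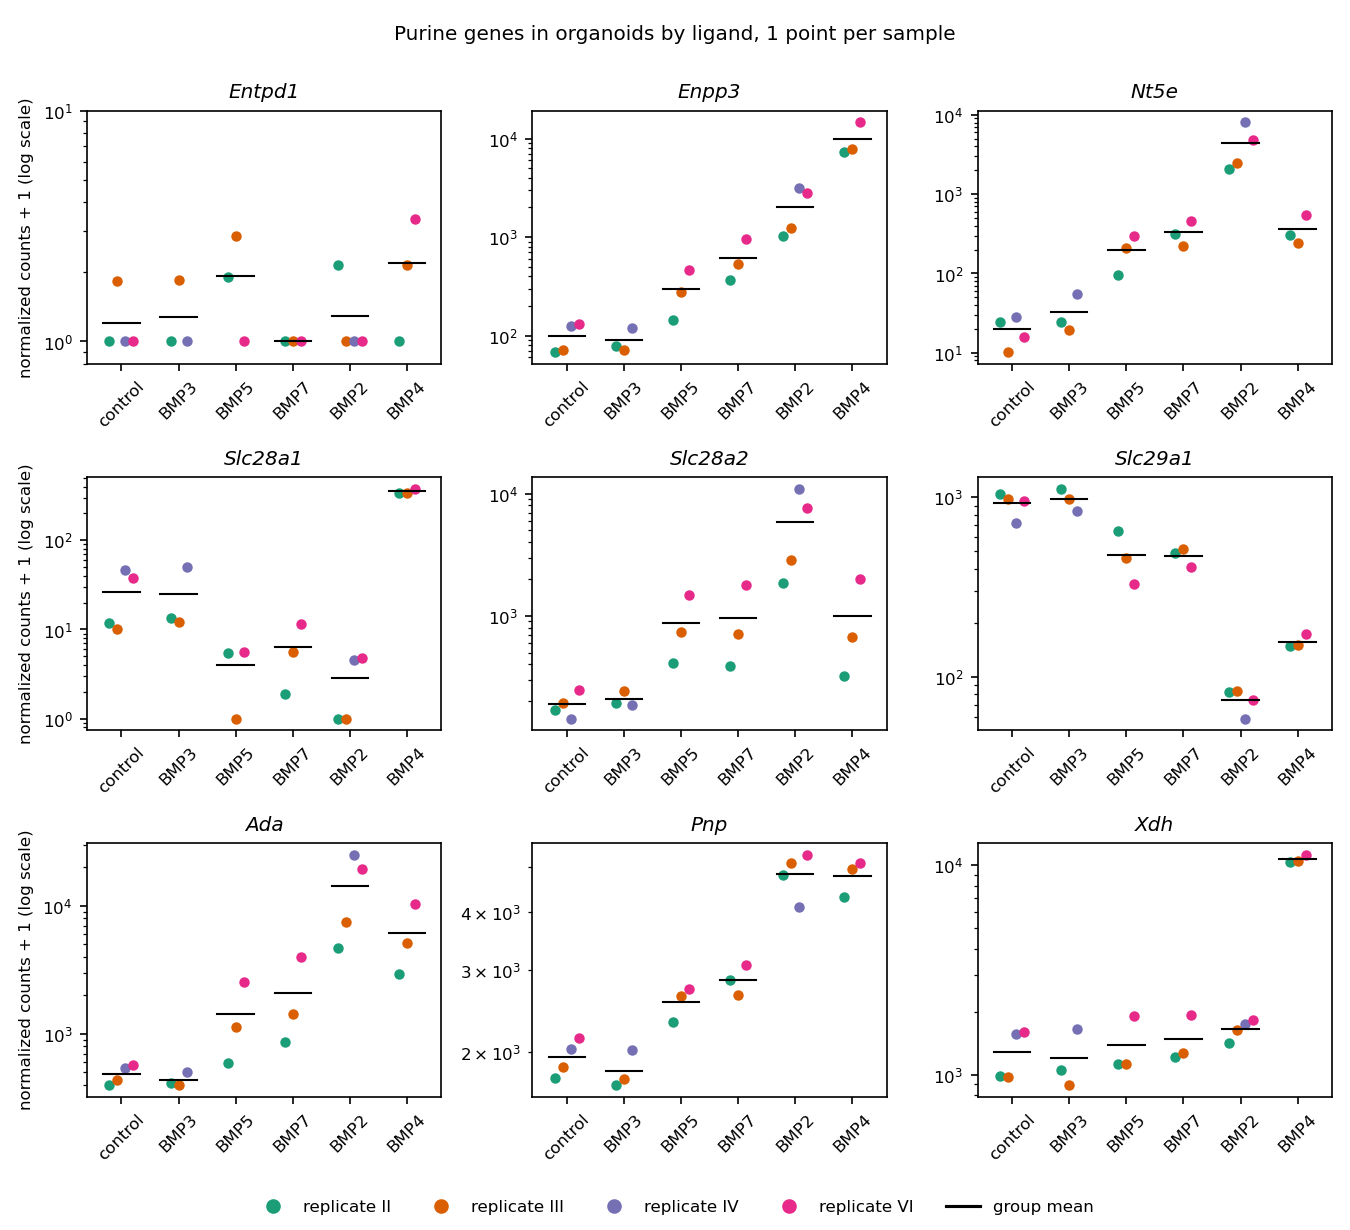
Normalized counts plus 1 (log scale, vertical axis) of the 9 genes in each of the 20 samples of the BMP table, by ligand (horizontal axis), with points coloured by replicate number and a bar at each group mean. Nt5e, Slc28a2 and Ada have their highest group mean under BMP2, Enpp3, Xdh and Slc28a1 under BMP4, Slc29a1 is lowest under BMP2, and Entpd1 never exceeds 2.39 normalized counts.

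Among the enzymes that act on nucleotides outside the cell, Enpp3 and Nt5e rose with 4 of the 5 BMPs, while Entpd1 was near 0 throughout. Entpd1 lay between 0 and 2.39 normalized counts in the 20 samples, which is 0, 1 or 2 reads per sample. Every sample was thus under 3 reads, the limit that a count of 0 allows for counting error alone, so no fold is given and the gene was not tested.

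Enpp3 was at 66.6, 69.7, 123 and 129 normalized counts in control replicates II, III, IV and VI. It was at 7370, 7760 and 14700 with BMP4 and at 1020, 1240, 3130 and 2770 with BMP2. All samples of both ligands lay far above all controls, and BMP4 samples lay above all BMP2 samples. The ratio of means was 102-fold with BMP4 (log2 difference 6.65, SE 0.45, limma adjusted p 7.07e-10) and 21.0-fold with BMP2 (4.28, SE 0.41, adjusted p 2.16e-08). BMP7 gave 370, 529 and 955 normalized counts (6.37-fold, log2 2.61, SE 0.45, limma adjusted p 0.00019). BMP5 gave 144, 278 and 463, also above every control. This rise was 3.04-fold (log2 1.5, SE 0.45, limma adjusted p 0.0178), and it lost its call without BMP5 replicate III (adjusted p 0.0619), without BMP5 replicate VI (0.130) or without control replicate III (0.0513). BMP3 gave 77.4, 71.0 and 119, within the range of the controls (log2 -0.09, 95% interval -1.03 to 0.84).

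Nt5e, which produces adenosine, was low in untreated organoids at 23.1, 9.13, 27.5 and 14.9 normalized counts in replicates II, III, IV and VI. With BMP2 it reached 2050, 2480, 8100 and 4840. The ratio of means was 234-fold, above that of the other 7 tested genes with any BMP (log2 7.69, SE 0.47, limma adjusted p 3.86e-11). BMP4 gave 306, 240 and 546 normalized counts, a 19.5-fold rise (log2 4.23, SE 0.51, limma adjusted p 7.42e-07). BMP7 gave 313, 223 and 456, a 17.7-fold rise (log2 4.12, SE 0.51, limma adjusted p 6.34e-06). BMP5 gave 94.2, 207 and 294, a 10.6-fold rise (log2 3.30, SE 0.51, limma adjusted p 9.19e-05). None of these samples overlapped the controls, and the BMP2 samples lay above those of all other ligands. BMP3 gave 23.1, 18.6 and 54.3, overlapping the controls (log2 0.70, 95% interval -0.36 to 1.77).

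The nucleoside transporters went in different directions. Slc28a2 rose with BMP2, BMP4, BMP5 and BMP7, Slc29a1 fell with the same 4 ligands, and Slc28a1 rose with BMP4 and fell with BMP2 and BMP5. In these bulk samples, a smaller share of cells of a type and less RNA per cell cannot be told apart.

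Slc28a2, the purine-preferring importer, was at 170, 192, 143 and 246 normalized counts in control replicates II, III, IV and VI. It was at 1870, 2840, 11000 and 7650 with BMP2, so that every treated sample lay above every control and replicates IV and VI stood well above II and III. The rise was 31.1-fold (log2 4.63, SE 0.59, limma adjusted p 8.8e-07). BMP4 gave 319, 671 and 2010, BMP5 gave 409, 734 and 1490, and BMP7 gave 387, 713 and 1770 in replicates II, III and VI. These 3 ligands thus gave like levels within each replicate number, and replicate II was the lowest and VI the highest each time. Their rises were 5.33-fold (limma adjusted p 0.00911), 4.67-fold (adjusted p 0.0232) and 5.10-fold (adjusted p 0.0171). Without BMP4 replicate VI the call with BMP4 was lost (adjusted p 0.0857), and without BMP7 replicate VI that with BMP7 (0.119). With BMP5 it was lost without BMP5 replicate III (0.0639), without BMP5 replicate VI (0.141) or without control replicate IV (0.0538). BMP3 gave 192, 244 and 186, within the range of the controls (log2 0.16, 95% interval -1.18 to 1.5).

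Slc28a1, the pyrimidine-preferring importer, was at 10.7, 9.13, 45.2 and 36.3 normalized counts in control replicates II, III, IV and VI, where IV and VI were the higher. With BMP4 it was at 341, 338 and 379, a 13.9-fold rise (log2 4.05, SE 0.81, limma adjusted p 0.000232). With BMP2 it was at 0, 0, 3.53 and 3.8, so all 4 samples were at or under 3 reads per library, worth at most 3.84 normalized counts. The fall was at least 6.60-fold (fitted log2 -3.30, SE 0.75, limma adjusted p 0.000595). BMP5 gave 4.48, 0 and 4.56, below every control (log2 -2.77, SE 0.81, limma adjusted p 0.0163). That call was lost without BMP5 replicate III (adjusted p 0.128), without control replicate IV (0.0513) and with a pseudocount of 0.1 (0.0508). So near the floor the log2 difference depends on the pseudocount, and over the alternatives it ran from -3.97 to -1.31 with BMP5 and from -5.04 to -1.44 with BMP2. BMP7 gave 0.907, 4.55 and 10.6, where the last value overlapped the controls. Its difference of -2.10 (95% interval -3.79 to -0.40) missed the threshold (limma adjusted p 0.0550) and passed it in 12 of 31 alternatives, among them the replicate number as a block (-1.73, adjusted p 0.0148), quantile normalization (0.0136), edgeR (0.0392) and DESeq2 (0.0354). BMP3 gave 12.5, 11.0 and 49.0, close to the controls with the same numbers (log2 -0.08, 95% interval -1.78 to 1.62).

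Slc29a1, the equilibrative transporter, was at 1040, 982, 718 and 958 normalized counts in control replicates II, III, IV and VI. With BMP2 it was at 81.7, 83.1, 57.6 and 73.4, a 12.5-fold fall with no overlap (log2 -3.63, SE 0.18, limma adjusted p 2.72e-12). BMP4 gave 148, 149 and 172, a 5.91-fold fall (log2 -2.55, SE 0.19, limma adjusted p 2.9e-09). Both groups varied little between replicates. BMP5 gave 649, 458 and 328 (1.93-fold lower, log2 -0.99, SE 0.19, limma adjusted p 0.000831). BMP7 gave 488, 513 and 408 (1.97-fold lower, log2 -0.97, SE 0.19, limma adjusted p 0.000794). The samples of these 2 ligands lay between the controls and the BMP4 samples. BMP3 gave 1120, 975 and 834, which overlapped the controls (log2 0.08, 95% interval -0.32 to 0.49).

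**Figure D2:**
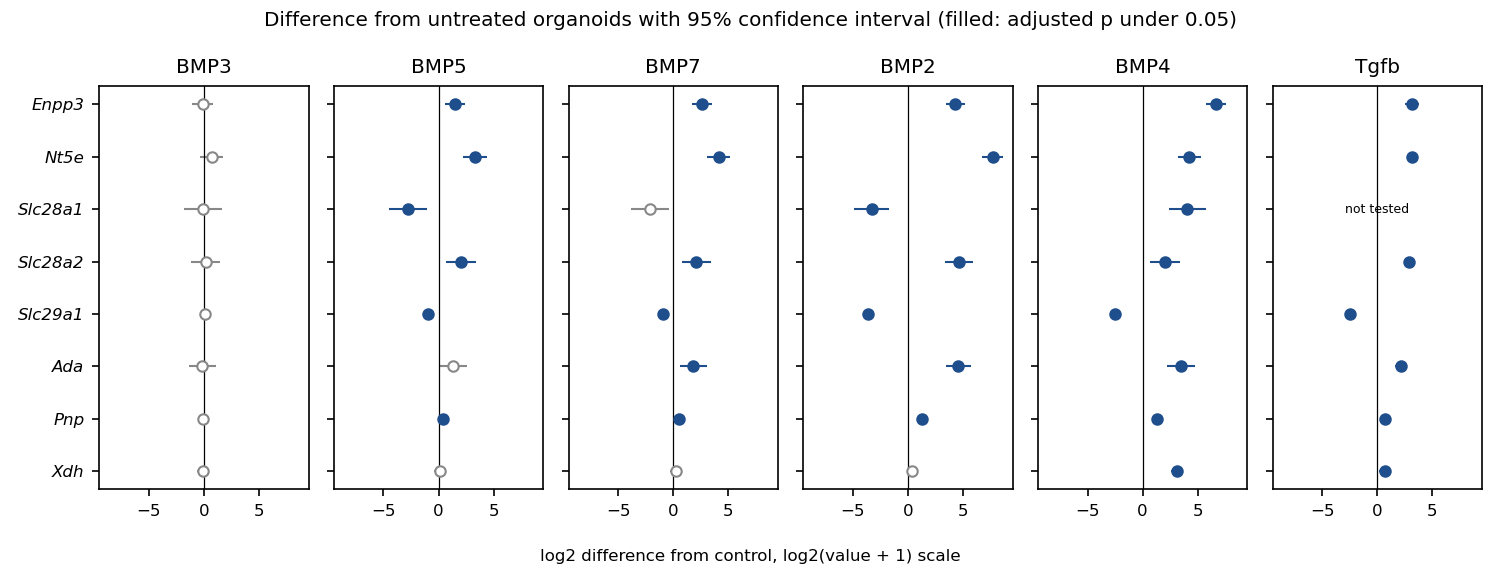
Log2 difference from untreated organoids (horizontal axis, log2(value + 1) scale) for the 8 tested genes (vertical axis) in 1 panel per ligand, with 95% confidence intervals and filled points where the adjusted p is under 0.05. Slc29a1 lies below 0 with BMP5, BMP7, BMP2, BMP4 and Tgfb, and Slc28a1 lies above 0 with BMP4 only, with an interval from 2.36 to 5.75.

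Of the enzymes inside the cell, Ada and Pnp rose with both BMP2 and BMP4, and Xdh was called with BMP4 alone among the BMPs. Ada, which deaminates adenosine, was at 396, 437, 536 and 569 normalized counts in control replicates II, III, IV and VI. It was at 4690, 7540, 25000 and 19500 with BMP2 and at 2950, 5090 and 10400 with BMP4. All 7 treated samples lay above all controls, and replicate II was the lowest in each treated group. The rise was 29.3-fold with BMP2 (log2 4.58, SE 0.54, limma adjusted p 3.52e-07) and 12.7-fold with BMP4 (3.49, SE 0.59, adjusted p 3.93e-05). BMP7 gave 868, 1430 and 3990, a 4.33-fold rise (log2 1.83, SE 0.59, limma adjusted p 0.0229) that lost its call without BMP7 replicate VI (0.160). BMP5 gave 586, 1130 and 2550, above all controls. Its difference of 1.31 (95% interval 0.08 to 2.54) missed the threshold (limma adjusted p 0.110) and passed it with the replicate number as a block (1.45, adjusted p 0.0016). It also passed in a fit of only control and BMP5 samples (0.0433), by DESeq2 (0.0442) and without BMP5 replicate II (0.0379). BMP3 gave 411, 398 and 501, within the range of the controls (log2 -0.14, 95% interval -1.37 to 1.09).

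Pnp, which splits inosine and guanosine, had the smallest standard errors of the 8 tested genes and rose with every BMP but BMP3. It was at 1760, 1860, 2030 and 2150 normalized counts in control replicates II, III, IV and VI. It was at 4810, 5110, 4110 and 5310 with BMP2 and at 4320, 4950 and 5100 with BMP4, with no overlap of either with the controls. The rises were 2.48-fold (log2 1.31, SE 0.10, limma adjusted p 4.91e-10) and 2.46-fold (1.30, SE 0.10, adjusted p 5.6e-09). Their size depended on the processing more than these SEs show. Over the alternatives the log2 difference ran from 0.85 to 1.38 with BMP2 and from 0.90 to 1.37 with BMP4, and both stayed called. BMP7 gave 2860, 2650 and 3080 (1.47-fold, log2 0.56, SE 0.10, limma adjusted p 0.000452). BMP5 gave 2320, 2640 and 2740 (1.32-fold, log2 0.40, SE 0.10, limma adjusted p 0.0083), and this call was lost without BMP5 replicate VI (0.0523). BMP3 gave 1700, 1750 and 2020, overlapping the controls (log2 -0.10, 95% interval -0.32 to 0.12).

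Xdh, which forms urate, was at 983, 975, 1560 and 1590 normalized counts in control replicates II, III, IV and VI, and so fell into a lower and a higher pair. With BMP4 it was at 10400, 10500 and 11200, an 8.38-fold rise (log2 3.11, SE 0.24, limma adjusted p 2.9e-09) with a spread far smaller than the rise. BMP2 gave 1420, 1630, 1750 and 1830, overlapping the controls (log2 0.41, 95% interval -0.05 to 0.87, limma adjusted p 0.0965). This difference was -0.05 after rescaling to the same total, and it passed the threshold without control replicate VI (0.53, adjusted p 0.0473). It also passed with the replicate number as a block (0.41, limma adjusted p 0.00418), although these numbers did not correlate in every pair. Within the same number, Xdh was higher with BMP2 by log2 0.53, 0.74, 0.17 and 0.20 in replicates II, III, IV and VI. BMP7 gave 1220, 1270 and 1930 (log2 0.21, 95% interval -0.28 to 0.71) and BMP5 gave 1120, 1120 and 1900 (0.11, -0.39 to 0.60), and both groups overlapped the controls. Within replicate numbers II, III and VI the log2 differences were 0.31, 0.38 and 0.28 with BMP7. With BMP5 they were 0.19, 0.20 and 0.26. Neither ligand was called for Xdh in any alternative, the block among them. BMP3 gave 1050, 891 and 1650 (log2 -0.10, 95% interval -0.60 to 0.39).

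The ligands were also compared with each other, in 6 pairs among BMP2, BMP4, BMP5 and BMP7 at the same dose and time. BMP2 against BMP4 called 6 of the 8 genes, where 66.8% of all genes were called, so the count is close to the background while its direction is split. Nt5e was 12.0-fold higher with BMP2 (log2 3.45, SE 0.51, limma adjusted p 7.63e-06) without overlap, and Slc28a2 was 5.84-fold higher (2.60, SE 0.64, adjusted p 0.00142) with overlap, since BMP4 replicate VI at 2010 exceeded BMP2 replicate II at 1870. Lower with BMP2 were Enpp3, by 4.87-fold (log2 -2.37, SE 0.45, limma adjusted p 0.000121), Xdh, by 6.46-fold (-2.70, SE 0.24, 9.35e-09), and Slc29a1, by 2.11-fold (-1.08, SE 0.19, 7.07e-05). Slc28a1 was at least 91.9-fold lower with BMP2 than with BMP4 (limma adjusted p 2.03e-07). For Ada the difference was 1.09 (95% interval -0.14 to 2.32, limma adjusted p 0.110), which passed the threshold without BMP2 replicate II (0.0276) or without BMP4 replicate VI (0.0408). For Pnp it was 0.01 (95% interval -0.21 to 0.23), so a difference beyond 0.23 either way lay outside the interval; it was -0.05 after rescaling to the same total or quantile normalization.

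**Figure D3:**
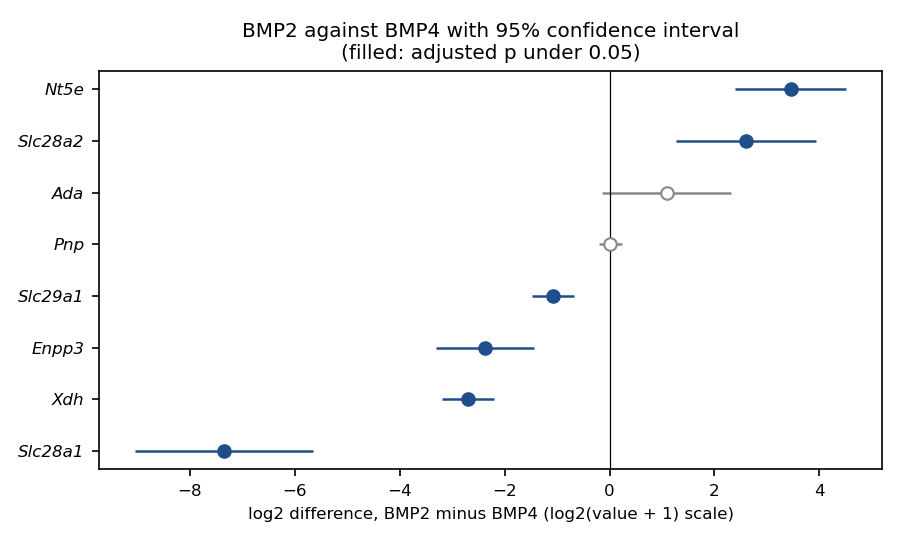
Log2 difference of BMP2 minus BMP4 samples (horizontal axis, log2(value + 1) scale) for the 8 tested genes (vertical axis), with 95% confidence intervals and filled points where the adjusted p is under 0.05. Nt5e (3.45) and Slc28a2 (2.60) lie to the BMP2 side, while Slc29a1, Enpp3, Xdh and Slc28a1 lie to the BMP4 side.

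BMP2 against BMP5 and against BMP7 called 6 of 8 genes each, where 65% and 62.8% of all genes were called. In both, Ada, Nt5e, Slc28a2, Pnp and Enpp3 were higher with BMP2 and Slc29a1 was lower. Nt5e was 22.0-fold and 13.2-fold higher with BMP2 than with BMP5 and BMP7 (log2 4.38 and 3.56, SE 0.51 each, limma adjusted p 5.31e-07 and 7.08e-06). For Xdh the differences were 0.30 (95% interval -0.19 to 0.80) and 0.20 (-0.30 to 0.69), and both were below 0 after rescaling to the same total (-0.11 and -0.19). For Slc28a1 they were -0.53 (95% interval -2.23 to 1.17) and -1.20 (-2.90 to 0.50).

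BMP4 against BMP5 and against BMP7 called 6 of 8 genes each, where 60.1% and 59.8% of all genes were called. In both, Slc28a1, Ada, Pnp, Xdh and Enpp3 were higher with BMP4 and Slc29a1 was lower. Enpp3 was 33.7-fold and 16.1-fold higher (log2 5.15 and 4.04, SE 0.48 each, limma adjusted p 4.17e-08 and 8.77e-07). Xdh was 7.75-fold and 7.26-fold higher (log2 3.00 and 2.89, SE 0.25 each, limma adjusted p 1.24e-08 and 2.27e-08). Ada was 2.93-fold higher than with BMP7 (log2 1.66, SE 0.63, limma adjusted p 0.0292), a call that was lost in 7 of 31 alternatives, among them each of BMP4 replicates III and VI (0.0555 and 0.143) and BMP7 replicates II and III (0.152 and 0.0792) left out. Slc28a2 did not separate BMP4 from BMP5 (log2 -0.02, 95% interval -1.45 to 1.41) or from BMP7 (-0.06, -1.49 to 1.37). Nt5e differed by 0.93 between BMP4 and BMP5 (95% interval -0.21 to 2.07, limma adjusted p 0.148), which passed the threshold with the replicate number as a block (adjusted p 0.0184). Between BMP4 and BMP7 it differed by 0.11 (95% interval -1.03 to 1.25).

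BMP5 against BMP7 called 0 of the 8 genes, where limma called 2 of all 14746 genes (0.0136%) and 347 had an unadjusted p under 0.05. The count over all genes was 0 to 9 when 1 sample was left out and 0 to 24 over the 31 alternatives. Here edgeR and DESeq2 also called 0 of the 8. The intervals were wide for Ada (log2 -0.52, 95% interval -1.83 to 0.80) and Slc28a1 (-0.67, -2.49 to 1.15), and narrow for Pnp (-0.16, -0.39 to 0.07) and Slc29a1 (-0.02, -0.46 to 0.41). Enpp3 was lower with BMP5 in all 3 replicate numbers (-1.11, 95% interval -2.11 to -0.11, limma adjusted p 1.00), which passed the threshold with the replicate number as a block (adjusted p 0.0471).

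The size of the response differed between replicate numbers for part of the genes. Within the same number, Ada was 11.8-fold higher with BMP2 than its control in replicate II, 17.3-fold in III, 46.6-fold in IV and 34.3-fold in VI. With BMP4 the rise of Ada was 7.45-fold in replicate II, 11.6-fold in III and 18.3-fold in VI, and with BMP7 2.19-fold, 3.27-fold and 7.01-fold. Replicate II thus showed the smallest rise of Ada with each of these 3 ligands. Slc28a2 was 11.0-fold higher with BMP2 in replicate II and 76.9-fold in IV, and 1.88-fold and 8.17-fold higher with BMP4 in replicates II and VI. Enpp3 did not share this spread with BMP4, where the rise was 111-fold, 111-fold and 114-fold in replicates II, III and VI. Slc29a1 likewise fell by a near constant log2 difference with BMP2, from -3.55 to -3.69 in the 4 numbers. What the replicate numbers stand for is not given in the labels, and its part in these responses was not tested.

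**Figure D4:**
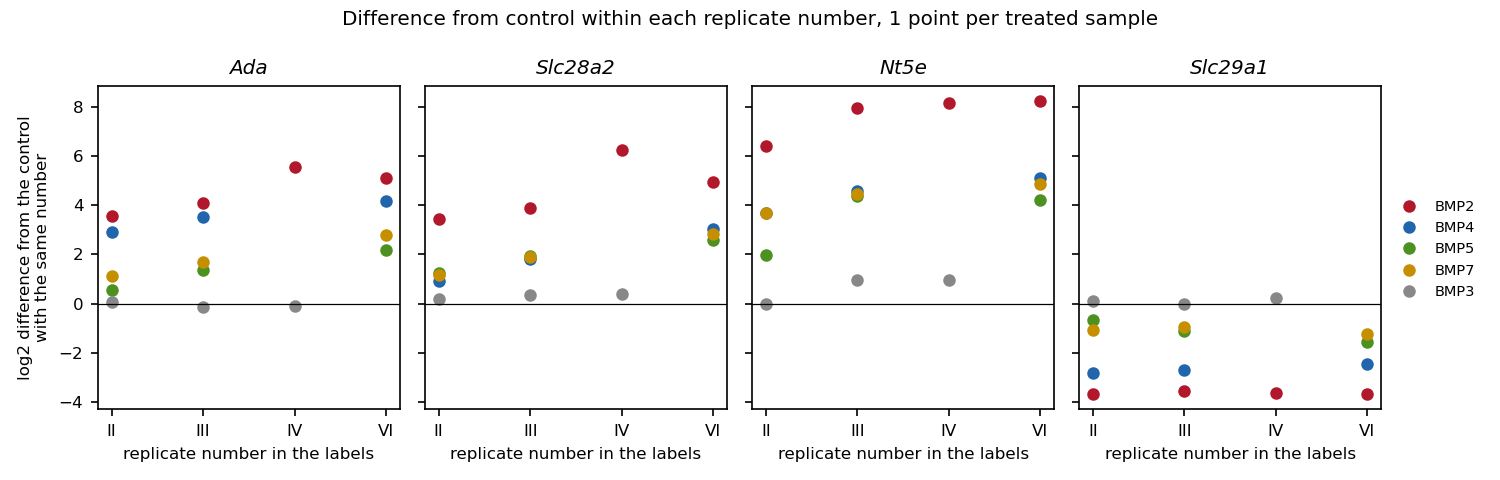
Log2 difference of each treated sample from the control with the same replicate number (vertical axis) by replicate number (horizontal axis), coloured by ligand, for Ada, Slc28a2, Nt5e and Slc29a1. For Ada the BMP2 points run from 3.56 in replicate II to 5.54 in IV, whereas the Slc29a1 points of BMP2 stay at one height.

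In the Tgfb table values are TPM, a share of all transcripts in the sample that is corrected for transcript length, so levels of different genes can be set side by side. The depth of these samples is unknown. Among untreated organoids Pnp had the highest level at 79.2 ± 3.70 TPM (SD, n = 3), followed by Slc29a1 at 38.2 ± 3.91, Xdh at 14.6 ± 3.57, Ada at 9.34 ± 1.04 and Slc28a2 at 4.53 ± 0.963. Enpp3 (0.846 ± 0.440) and Slc28a1 (0.536 ± 0.124) overlapped each other, Nt5e was at 0.0702 ± 0.0211, and Entpd1 was listed at 0 in every control. Xdh and Ada were separate in their sample values, although the lowest Xdh sample at 10.7 TPM was close to the highest Ada sample at 9.95.

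Of the 9 genes, 7 passed the filter of at least 1 TPM, and Tgfb raised 6 and lowered 1 of them, against 27.4% higher and 29.3% lower of all 12959 genes tested. Nt5e and Enpp3 passed the filter only through the treated samples, so this count is a description, and for these 2 genes the adjusted p of the fit without filtering is given. Nt5e was at 0.0719, 0.0483 and 0.0904 TPM in control replicates I, II and III and at 7.56, 7.80 and 10.7 with Tgfb (log2(TPM + 1) difference 3.17, limma adjusted p without filtering 0.000138). Every treated sample exceeded the controls by a wide margin, which the log2 difference understates because of the pseudocount. Slc28a2 went from 3.98, 5.64 and 3.96 TPM to 43.1, 38.0 and 40.4, an 8.95-fold rise (log2 2.92, SE 0.13, limma adjusted p 1.52e-05). Enpp3 went from 1.35, 0.580 and 0.604 TPM to 14.4, 11.5 and 21.4, an 18.7-fold rise (log2 3.17, limma adjusted p without filtering 0.000621). The treated samples of both genes were all above their controls.

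Ada was at 9.93, 8.15 and 9.95 TPM in controls and at 41.6, 32.7 and 59.9 with Tgfb, a 4.79-fold rise without overlap (log2 2.11, SE 0.22, limma adjusted p 0.000345). Pnp went from 77.8, 76.4 and 83.4 TPM to 117, 145 and 131 (1.65-fold, log2 0.71, SE 0.09, limma adjusted p 0.000973). Slc29a1 fell 6.11-fold, from 35.1, 42.6 and 36.8 TPM to 7.49, 5.61 and 5.65 (log2 -2.44, SE 0.13, limma adjusted p 2.41e-05). Slc29a1 was thus lower with Tgfb as it was with BMP2, BMP4, BMP5 and BMP7. Xdh went from 15.1, 10.7 and 17.8 TPM to 29.3, 19.7 and 22.9 (1.65-fold, log2 0.69, SE 0.21, limma adjusted p 0.0319). This call was lost without filtering (adjusted p 0.0688) and when control replicate I, control replicate II, Tgfb replicate I or Tgfb replicate III was left out (0.0660, 0.0730, 0.0869 and 0.0718). Slc28a1 was listed at 0 in all 3 Tgfb samples and was at 0.467, 0.680 and 0.462 TPM in controls, below the filter and so without a test. Entpd1 was at 0 in 5 of the 6 samples.

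**Figure D5:**
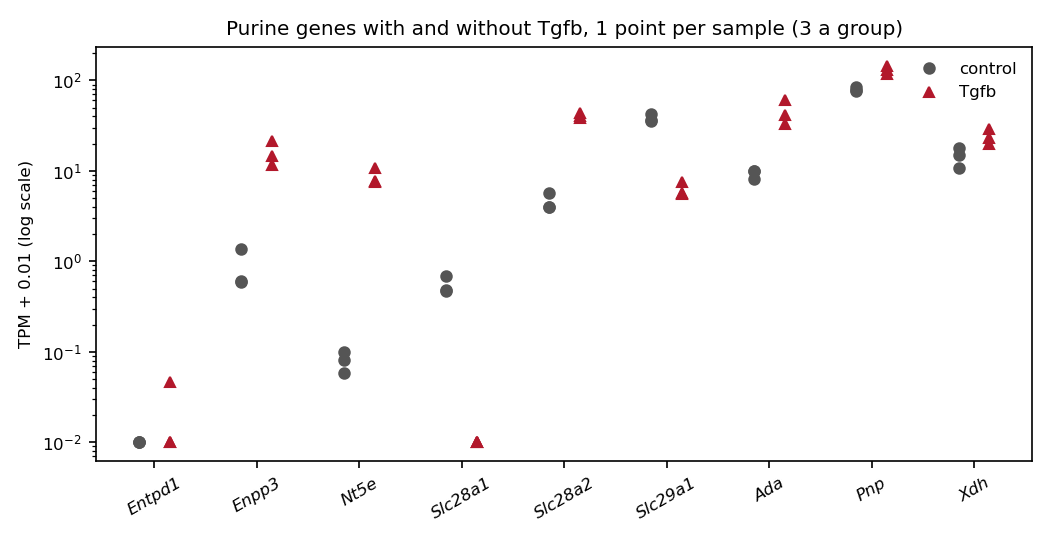
TPM plus 0.01 (log scale, vertical axis) of the 9 genes (horizontal axis) in 3 untreated and 3 Tgfb-treated samples, 1 point per sample. Enpp3, Nt5e, Slc28a2, Ada, Pnp and Xdh lie higher with Tgfb and Slc29a1 lower, and Slc28a1 is listed at 0 in all 3 treated samples.

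Pnp and Slc28a2 each have a near copy, Pnp2 and Slc28a2b, that lies next to Pnp without another gene between, or 1 pseudogene (Bambi-ps1) away from Slc28a2, in RefSeq (GRCm38.p6). Of the 75-base windows of the annotated Slc28a2 transcripts in GENCODE M21, 24.7% also occur in Slc28a2b, and 21.3% of those of Pnp2 occur in Pnp. Of the windows of Pnp itself, 19.1% occur in another annotated gene, most of them (16.1%) in Gm49342. Reads of 75 bases from these stretches cannot be assigned by sequence alone, so the split between these genes is uncertain. Pnp2 was at 262, 330, 527 and 569 normalized counts in control replicates II, III, IV and VI, at 920, 844, 782 and 1410 with BMP2, and at 1910, 1870 and 2700 with BMP4. It rose 2.34-fold with BMP2 (log2 1.26, SE 0.27, limma adjusted p 0.000386) and 5.12-fold with BMP4 (2.40, SE 0.29, 9.95e-07). Unlike Pnp, Pnp2 was lower with BMP2 than with BMP4 (2.18-fold, log2 -1.15, SE 0.29, limma adjusted p 0.00217). Slc28a2b was at 0, 0.830, 0 and 0 in controls and at 12.5, 21.7, 201 and 39.2 with BMP2, an increase of at least 25.7-fold over 3 reads per library. With BMP4 it was at 1.19, 7.99 and 22.7, at least 3.99-fold higher by its mean. Slc28a2b reached the mean of 10 only through its BMP2 samples, so no p-value is given for it. With BMP5 and BMP7, Pnp2 was at means of 508 and 647 and was not called (limma adjusted p 0.484 and 0.103). Ada, Nt5e, Slc28a1 and Entpd1 shared no such window with another annotated gene, and for Enpp3, Slc29a1 and Xdh the share was 0.158%, 2.68% and 5.01%.

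The remaining genes of the pathway, in 7 lists chosen for their role, are given by their counts, to be read against the shares of all genes tested. These shares were 36.8% higher and 38.4% lower with BMP2, 33.7% and 31.4% with BMP4, 16.5% and 9.87% with BMP5, 19.2% and 13.2% with BMP7, and 27.4% and 29.3% with Tgfb. Of 16 tested genes of purine breakdown and salvage, 3 were higher and 11 lower with BMP2, 4 and 7 with BMP4, 2 and 5 with BMP5, 3 and 3 with BMP7, and 2 and 8 with Tgfb. Rescaling to the same total raised the count lower with BMP4 to 11 and with BMP7 to 6, and the counts lower with BMP5 and BMP7 ranged from 1 to 5 when 1 sample was left out. Gda, which deaminates guanine to xanthine, was 29.5-fold higher with BMP4, at 20000 ± 1411 against 677 ± 275 normalized counts (SD, n = 3 and 4, limma adjusted p 7.01e-10), and at 712 ± 326 with BMP2 (SD, n = 4). Xdh was likewise high with BMP4 and not with BMP2. With BMP7, Gda was at 1573 ± 517 normalized counts (SD, n = 3). Its lowest sample there, at 1030, was barely above the highest control at 1020, and Xdh overlapped its controls with BMP7. Dck, which phosphorylates deoxynucleosides, fell 4.77-fold with BMP2 (log2 -2.26, SE 0.18, limma adjusted p 1.88e-09).

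Genes that build purines from small precursors were mostly lower with BMP2, BMP4 and Tgfb. Of 12 tested, 10 were lower with BMP2, 11 with BMP4, 5 each with BMP5 and BMP7, and 10 with Tgfb, against 38.4%, 31.4%, 9.87%, 13.2% and 29.3% of all genes, and 0 were higher in any of these. With BMP2 their median log2 difference was -2.34, beside -0.03 for all genes. Ppat, which catalyses the committed step of purine synthesis, fell 15.0-fold, from 1645 ± 17.3 in controls to 110 ± 27.6 with BMP2 (SD, n = 4 each, log2 -3.93, SE 0.15, limma adjusted p 2.79e-13). The count with BMP5 ranged from 1 to 6 when 1 sample was left out, and that with BMP7 fell to 2 without BMP7 replicate VI.

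Genes listed as other ectonucleotidases and surface phosphatases, by family and not by measured location or substrate, were split between the ligands. Of 16 tested ectonucleotidases and surface phosphatases, 10 were higher and 5 lower with BMP4, whereas 2 were higher and 9 lower with BMP2 (0 to 2 higher over the alternatives), against 33.7% and 31.4% of all genes with BMP4 and 36.8% and 38.4% with BMP2. Enpp7, a phosphodiesterase of the enterocyte brush border, was 20.9-fold higher with BMP4, at 150 ± 39.1 normalized counts against 7.19 ± 3.76 in controls (SD, n = 3 and 4). It passed the filter only through BMP4, so the count higher with BMP4, which holds it, is a description. That count was 9 to 10 over the alternatives. The adjusted p of Enpp7 by limma without filtering was 2.93e-06. Entpd6 fell 7.13-fold with BMP2 (log2 -2.82, SE 0.13, limma adjusted p 1.44e-12). Of 14 intracellular nucleotidases and nucleotide kinases, 4 were higher and 8 lower with BMP2 and 5 and 5 with BMP4. After rescaling to the same total, 2 were higher with BMP2, and 2 were higher and 8 lower with BMP4. The counts with BMP4 stood near the shares of all genes. In that list Nt5c2, a cytosolic nucleotidase with a preference for IMP, rose 4.73-fold with BMP2 (log2 2.24, SE 0.13, limma adjusted p 1.5e-11), and Nt5c3b fell 5.51-fold (-2.46, SE 0.14, 1.08e-11).

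Among 9 further transporters of nucleosides, bases and urate, 5 were higher and 3 lower with BMP2, and 3 and 3 with BMP4 (5 lower after rescaling to the same total). The counts with BMP4 stood near the 33.7% and 31.4% of all genes, and those with BMP2 compare with 36.8% and 38.4%. Slc29a4, a relative of Slc29a1, went the other way from it with BMP2, at 112 ± 29.5 normalized counts against 18.8 ± 3.55 in controls (SD, n = 4 each, 5.95-fold, limma adjusted p 7.24e-08). With BMP4 it fell, as Slc29a1 did, to 8.22 ± 0.206 (SD, n = 3, 2.28-fold, limma adjusted p 0.00255). Abcc4, an exporter of nucleotides, fell 6.54-fold with BMP4 (log2 -2.69, SE 0.17, limma adjusted p 3.34e-10). Of 7 tested receptors for adenosine and nucleotides, 2 were higher and 3 lower with BMP2, near the shares of all genes. With BMP4, 2 were higher and 2 lower, and with BMP5 2 and 0. With BMP7, 4 were higher and 0 lower, against 19.2% and 13.2% of all genes. That count of 4 ranged from 2 to 4 when 1 sample was left out. Adora1 fell 30.5-fold with BMP2 (log2 -4.76, SE 0.27, limma adjusted p 1.65e-11), and Adora2a rose 5.69-fold (2.49, SE 0.33, 1.31e-06). Of 11 genes of pyrimidine nucleoside breakdown, 3 were higher and 7 lower with BMP2 and 8 and 3 with BMP4. The shares of all genes beside them were 36.8% and 38.4% with BMP2 and 33.7% and 31.4% with BMP4. Upp2, a uridine phosphorylase, rose 6.25-fold with BMP2 (log2 2.61, SE 0.33, limma adjusted p 8.17e-07) and Dctd fell 9.10-fold (-3.18, SE 0.18, 1.47e-11).

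The genes whose levels across the 20 samples of the BMP table were most like each purine gene are given as a description, from 11855 genes with a mean of at least 50. The samples share their 6 groups, so any genes that respond to the same ligands correlate highly. Ada was most like Sprr2a2 (Pearson r = 0.983), Khnyn and Micall2, and Nt5e was most like Patj (0.987), Parp3 and Anxa10. Slc28a2 was most like Esyt1 (r = 0.968), Sprr2a2 and Mob3a. Slc29a1 was most like Dctpp1 (r = 0.995), an enzyme that breaks down deoxynucleotides, followed by Paip2b and Rgcc. Among the genes most like Slc28a1 were Slc26a6 (r = 0.970), an anion exchanger, and Gpt (0.968), an alanine aminotransferase. Xdh was most like Gk (r = 0.988), 1810055G02Rik and Alpi, the intestinal alkaline phosphatase. Enpp3 was most like Agpat2 (r = 0.989), Vil1, which bundles actin in microvilli, and Lipa. Pnp was most like Slc35f5 (r = 0.985), Lgals4 and Wipf2. Among the purine genes themselves, r was largest in size for Slc29a1 with Pnp (-0.947) and with Ada (-0.945). It was 0.934 for Ada with Slc28a2, 0.930 for Nt5e with Slc28a2, 0.929 for Pnp with Enpp3 and 0.920 for Ada with Pnp. For Slc28a1 it was 0.756 with Xdh and -0.313 with Slc28a2.

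Markers of the epithelial cell types were also higher or lower with these ligands, and 1 of them, Alpi, was in the list of surface phosphatases too. Counts of markers are to be read against the shares of all genes tested. These were 36.8% higher and 38.4% lower with BMP2, 33.7% and 31.4% with BMP4, and 16.5% and 9.87% with BMP5. With BMP7 they were 19.2% and 13.2%, and with Tgfb 27.4% and 29.3%. The enterocyte and goblet counts with BMP2 stood near the shares of all genes. Of 8 enterocyte markers (Vil1, Alpi, Fabp1, Fabp2, Apoa4, Sis, Lct and Krt20), 8 were higher with BMP4, 3 higher and 3 lower with BMP2, and 4 higher and 4 lower with Tgfb, and their summed normalized counts were 55044 to 96022 in controls, 106323 to 194611 with BMP2 and 433710 to 482500 with BMP4. All 6 crypt and stem cell markers were lower with BMP2, with BMP4 and with Tgfb, from a sum of 110718 to 138995 in controls to 1247 to 2428 with BMP2 and 7179 to 10434 with BMP4. With BMP7, 3 of these 6 were lower, at a sum of 33003 to 37329, and with BMP5 1 was, at 36139 to 88674. Of the enterocyte markers, 2 were higher and 3 lower with BMP7, and 2 and 2 with BMP5. Of 6 tuft markers 5 were tested, and 3 were higher with BMP2, 3 with BMP7 and 2 each with BMP4 and BMP5, where 1 was lower with BMP4. All 6 Paneth markers were lower with BMP2. Of 6 goblet markers 2 were higher and 3 lower with BMP2, and 4 were higher with BMP4, while 3 of 6 enteroendocrine markers were higher with BMP2. Of 6 mesenchymal markers 0 passed the filter, with sums of at most 55.4 normalized counts and Dcn not listed there. The immune and endothelial sum was 603 to 1053 over all groups of the BMP table, with 2 of 6 markers tested and Cdh5 at 0 in every control, BMP4 and BMP5 sample. The part of these cell type markers in the levels of the purine genes was not tested.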

How the data were processed

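Libraries made from mouse organoid RNA with an mRNA kit were sequenced as single-end reads of 75 bases, per the labels' protocols. Trim Galore, Salmon, DESeq2 and the build GRCm39 are named in the submitters' processing notes, without versions or roles, and the annotation release is not given in the sources used here. For the BMP ligands the authors deposited a signal: read counts per gene over a size factor for each sample, written to 3 significant digits. This was read from the values: of 180721 values at or below 20 reads, 100% were whole multiples of 1 read within 0.1. For Tgfb the deposited values were TPM, since all columns summed to 1000000, so depth there is unknown. The mesenchymal samples were not used here.

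Groups came from the labels, and 0 columns were left unmapped. The main test was limma 3.58.1 (R 4.3.3) with an intensity trend on log2(value + 1), over all 6 groups of the BMP table, for genes with a mean of at least 10 (14746 of 29413), or at least 1 TPM in the Tgfb table (12959 of 55416). Tests were two-sided and Benjamini-Hochberg adjusted over all genes tested, with a threshold of 0.05. Fold changes are ratios of group means of the deposited values. Intervals are 95% confidence intervals of the fit. Where no sample of a group exceeded 3 reads per library, the group was set to that floor and its fold given as a lower bound, which covers counting error only. No replicate pair of a group was a copy, since at most 1.27% of genes with a pair mean of at least 10 had the same value in both. The fits were tested on simulated data.

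Alternatives were other pseudocounts, filters, scalings and fits, leaving out each sample, and edgeR 4.0.16 and DESeq2 1.42.0 on the recovered reads. Whether the replicate numbers of the labels pair samples was checked from the correlation of same-numbered samples about their group means. Every pair correlated above 0.1 for BMP3, BMP4, BMP5 and BMP7 against control, BMP2 against BMP5, BMP4 against BMP5 and BMP7, and BMP5 against BMP7, so blocked values stand beside those results where they change a call.

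The 9 genes, the lists of related genes and markers, and the tests were chosen with earlier results of these data known. Named beyond the 9 genes and the 2 near copies are, per pathway list, the gene that rose most and the gene that fell most among those called without overlap between groups and with a mean of at least 50 normalized counts or 5 TPM, and the 3 genes most like each purine gene across samples. Shared stretches were counted as identical 75-base windows of GENCODE M21 transcripts on either strand. One gene that this rule of likeness would name is not reported here.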

Additional observations from a re-analysis of the deposited data

Results flagged for a closer look

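Entpd1 in BMP2 replicate II, at 1.14 normalized counts, stood apart from the other BMP2 samples, which were all at 0. Entpd1 in control replicate III, at 0.83, likewise stood apart from the other controls at 0. Each value is a single read. These were 2 of 18 combinations of gene and group with 4 samples. The rule marks every group of 4 with a single read in 1 sample and 0 in the rest. These marks thus follow from the low counts and say nothing further about the samples.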

How the results depend on the processing

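All 64 results of the purine genes past the threshold kept their direction under each of their 1856 alternatives, and 25 of those alternatives took a result below the threshold. For part of these alternatives the direction was fixed in advance. Other filters, a fit of only the compared groups, and leaving out a sample of another group do not change the log2 difference, only its p-value. The number of genes called with BMP5 against control was 3 to 7 when 1 sample was left out, beside 6 with all samples. Results that missed the threshold changed sign in 52 alternatives. With the replicate number as a block, the count of BMP5 against BMP7 was 1 rather than 0, Ada, Slc28a1 and Enpp3 with BMP3 stood at 0.12, 0.12 and 0.092, and, for comparisons whose numbers did not correlate in every pair, Xdh with BMP2 (adjusted p 0.00418), Ada in BMP2 against BMP4 (0.011) and Slc28a1 in BMP2 against BMP7 (0.0151) passed the threshold. In those, at least 1 pair correlated at or below 0.1 (lowest 0.0182 for BMP2 against control, -0.0400 for BMP2 against BMP4, -0.107 for BMP2 against BMP7 and 0.00405 for Tgfb), and a sample correlated best with its own number in 3 of 4, 2 of 3, 2 of 3 and 1 of 3 pairs. Beside these and the values given with the results, the block changed no call of a purine gene.

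Rescaling to the same total gave -0.049 for Xdh with BMP2, -0.049 for Pnp in BMP2 against BMP4, -0.11 and -0.19 for Xdh in BMP2 against BMP5 and BMP7, -0.22 for Nt5e in BMP4 against BMP7 and 0.0082 for Slc29a1 in BMP5 against BMP7. In BMP2 against BMP5 and BMP7 and in BMP4 against BMP5 and BMP7 it moved the share of calls that were higher to 26.3%, 26.5%, 27.3% and 28.6%, from 49.6%, 50.1%, 47.3% and 47.5%. Quantile normalization gave -0.048 for Pnp in BMP2 against BMP4 and 0.43 for Slc28a1 in BMP2 against BMP5. On recovered reads, edgeR and DESeq2 gave 0.083 and 0.19 for Slc28a2 in BMP4 against BMP5 and 0.0135 and 0.0334 for Slc29a1 in BMP5 against BMP7, and DESeq2 gave 0.073 for Slc28a2 in BMP4 against BMP7.

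When 1 sample was left out, results with BMP3 ranged from -0.32 to 0.064 for Enpp3, -0.74 to 0.29 for Slc28a1, -0.034 to 0.19 for Slc29a1 and -0.36 to 0.084 for Xdh. In BMP5 against BMP7 they ranged from -1.07 to 0.096 for Ada, -1.36 to 0.15 for Slc28a1, -0.55 to 0.54 for Slc28a2, -0.27 to 0.22 for Slc29a1 and -0.36 to 0.10 for Xdh. The ranges were -0.23 to 0.37 for Nt5e in BMP4 against BMP7, -0.062 to 0.086 for Pnp in BMP2 against BMP4, -0.72 to 0.60 and -0.77 to 0.56 for Slc28a2 in BMP4 against BMP5 and BMP7, and -0.15 to 0.23 for Xdh with BMP5. The cause was not tested in any of these. Depth limits Slc28a1 under BMP2, BMP5 and BMP7 and Entpd1 throughout, which rest on a few reads, and the unknown depth of the Tgfb table gives no floor for Slc28a1 there.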
